A study of Mus musculus with 12 samples.

Results

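The data describe 7 genes of membrane carriers that move organic anions into cells, measured as RNA in 12 mouse livers: Slco1a1, Slco1a4, Slco1b2, Slco2a1, Slco2b1, Slco3a1 and Slc22a7. They were found by symbol and are 7 of 38087 genes in the deposited count table, each with 1 row. All 7 passed the filter on low counts that left 14170 genes. The set was chosen by family, with the measured log2 fold changes between ghrelin and control livers already known. That difference is therefore given for the members as a description and supports nothing further. The set's working name also covers carriers of organic cations, but the 6 Slco genes and Slc22a7 encode carriers of anions.

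The 12 libraries were made from livers of germ-free C57BL/6j males (raised without microbes) aged 13 to 16 weeks, and all are labelled zeitgeber time 2, a time counted from lights on. The ghrelin group (n = 6) had rat ghrelin injected under the skin daily for 5 days, 10 µg at a time, while the 6 livers of the PBS group come from mice given buffered saline alone. This hormone of the stomach raises appetite and growth hormone release. The comparison asks how repeated ghrelin changes the liver transcriptome in the absence of a microbiota. The libraries held 15775059 to 22302533 counts. RNA came from whole liver, and in such bulk samples fewer cells of a type and less RNA per cell cannot be told apart.

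Slco genes encode organic anion transporting polypeptides, carriers that take bile acids, steroid conjugates, thyroid hormones, prostaglandins and many drugs from blood into cells without using the sodium gradient. In hepatocytes they sit on the membrane that faces the blood, together with the sodium-dependent bile acid carrier Slc10a1, and what they take up is conjugated inside the cell and pumped into bile or back into blood by ABC transporters. In mice Slco1a1 is known as higher in male liver and Slco1a4 as higher in female liver, and Slco1a4 is a known target of the drug-sensing nuclear receptors CAR and PXR. Slc22a7 belongs to another carrier family and is known to handle small anions such as cyclic nucleotides and prostaglandins.

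Of these genes 3 lie close together. In GENCODE M21 on GRCm38, the assembly also called mm10, Slco1b2 (ENSMUSG00000030236) spans chr6:141629518-141686646 on the plus strand. Slco1a4 (ENSMUSG00000030237) spans chr6:141805440-141856199 and Slco1a1 (ENSMUSG00000041698) chr6:141907282-141946962, both on the minus strand. The other members lie apart: Slco2a1 (ENSMUSG00000032548) at chr9:102988712-103096002 on the plus strand, and on the minus strand Slco2b1 (ENSMUSG00000030737) at chr7:99657804-99711340, Slco3a1 (ENSMUSG00000025790) at chr7:74275419-74554780 and Slc22a7 (ENSMUSG00000067144) at chr17:46432183-46438457. Each of the 7 is a protein-coding gene in that annotation, and only exonic reads enter the counts.

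RefSeq start-site windows (GRCm38.p6) were found for 5 of the 7 genes. The 250 bases before the annotated start are shown for the 3 neighbours on chromosome 6, since Slco1a4 stood apart from the other 2 in these livers. Capitals mark matches on either strand to the motifs searched: AGGTCA and AGTTCA (arms of nuclear receptor sites), TTCNNNGAA (the STAT palindrome), TGACNNNGC (the core of the antioxidant response element), TATAAA and CCAAT.
Slco1a4, chr6:141856221-141856470, minus strand: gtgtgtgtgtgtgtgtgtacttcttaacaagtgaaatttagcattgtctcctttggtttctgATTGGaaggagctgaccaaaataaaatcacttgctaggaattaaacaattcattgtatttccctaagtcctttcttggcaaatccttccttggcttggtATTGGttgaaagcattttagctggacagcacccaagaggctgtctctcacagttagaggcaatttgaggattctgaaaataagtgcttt
Slco1a1, chr6:141946963-141947212, minus strand: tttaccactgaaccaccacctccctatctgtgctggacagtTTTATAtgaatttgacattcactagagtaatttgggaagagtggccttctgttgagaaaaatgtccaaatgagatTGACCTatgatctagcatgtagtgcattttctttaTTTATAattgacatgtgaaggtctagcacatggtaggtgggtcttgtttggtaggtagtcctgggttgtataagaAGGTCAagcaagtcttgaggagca
Slco1b2, chr6:141629268-141629517, plus strand: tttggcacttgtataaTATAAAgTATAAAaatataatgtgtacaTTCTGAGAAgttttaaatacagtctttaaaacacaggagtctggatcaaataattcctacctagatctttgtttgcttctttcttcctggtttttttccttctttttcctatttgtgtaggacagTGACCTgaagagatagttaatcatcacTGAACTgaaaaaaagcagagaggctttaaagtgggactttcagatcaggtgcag
The Slco1a4 window held only CCAAT, in 2 places, a motif found in 33.8% of 32851 windows of the same length. The Slco1a1 window held AGGTCA in 2 places (14% of windows hold it) and TATAAA in 2 places (12.4%). The Slco1b2 window held AGGTCA and AGTTCA on the other strand (11.8% of windows hold AGTTCA), TTCNNNGAA (7.02%) and TATAAA in 2 places. None of the 3 windows held TGACNNNGC, which 10.2% of windows hold. G and C made up 39.2% of the Slco1a4, 40.4% of the Slco1a1 and 33.6% of the Slco1b2 window, below the median of 52.4% over all windows. The shares of windows were not matched for this. These matches describe letters in short windows and are not evidence of binding.

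The 3 genes of this locus differ in how far their transcripts can be told apart. The longest Slco1a4 transcript shares 2.23% of its 50-base stretches with Slco1a1, the longest identical run being 132 bases, and shares none with Slco1b2. The paralogs of the same locus were almost silent: Slco1a5 and Gm5724 had 1 count each over all 12 livers, Slco1a6 had 3 and Gm6614 had 90, against 9681 for Slco1a4 and 195089 for Slco1a1. Slco1a1 in turn shares 2.18% of its stretches with Slco1a4. How much of either count is uncertain is not known, since the handling of reads that match both genes is not given in the sources used here. If such reads were counted for both, the uncertain part would weigh more on Slco1a4, which has far fewer counts. Slco2b1 overlaps exons of the antisense gene Gm15635, which had 67 counts in all against 39725, and the strand setting of the counting is not given either.

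The carriers differed widely in level. Library-scaled counts, given as CPM, the usual per-library unit of read counts after scaling of the library totals, were divided by the length of all annotated exons of a gene, so that genes can be compared. On this scale of CPM per kb, Slco1b2, the main hepatocyte carrier of bile acids and bilirubin among these genes, had 403 ± 49.4 in PBS livers and 362 ± 22.9 in ghrelin livers (SD, n = 6 per group). It made up 66.1% ± 2.12 of the summed level of the 7 genes in PBS and 64.6% ± 1.18 in ghrelin. Slco1a1 followed with 159 ± 9.62 in PBS and 151 ± 14.4 in ghrelin, then Slco2b1, a carrier of sulphated steroids and statins, with 27.7 ± 0.998 and 28.6 ± 2.51. At the low end lay Slco2a1, the prostaglandin transporter, with 2.69 ± 0.400 and 2.95 ± 0.279, and Slco3a1, a widely expressed carrier of prostaglandins and thyroxine, with 0.481 ± 0.0682 and 0.459 ± 0.0745. The level per kb of the first 3 carriers did not overlap with that of the next in either group.

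The order in the middle was not the same in both groups. In PBS the level per kb of Slco1a4 was 5.41 to 11.9 and overlapped with the 5.35 to 10.6 of Slc22a7, Slco1a4 being the higher in 3 of 6 livers. In ghrelin Slc22a7 (7.63 to 16.1) lay above Slco1a4 (3.41 to 4.93) without overlap. The length used bears on this: per kb of the longest transcript, an alternative chosen after the values were seen, Slco1a4 had 9.08 to 20.0 in PBS against 5.65 to 11.2 for Slc22a7. In ghrelin it had 5.72 to 8.27 against 8.06 to 17.0, so the 2 genes overlapped in both groups. The ranks of all 7 means were the same with both lengths in each group.

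**Figure D1:**
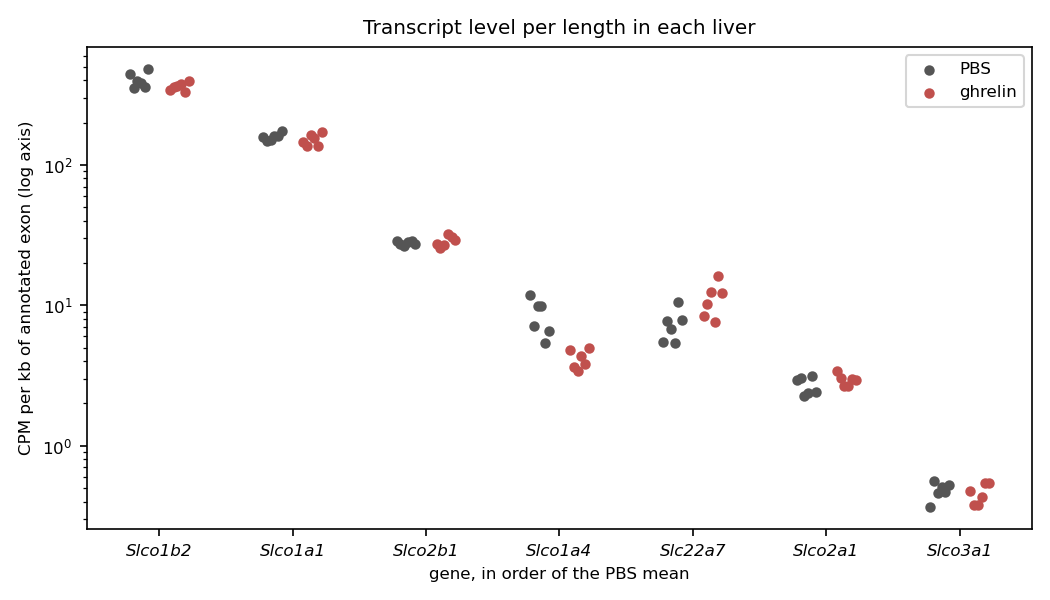
CPM per kb of annotated exon (log axis) for the 7 carriers in each of 6 PBS (grey) and 6 ghrelin (red) livers, in order of the PBS mean. Slco1b2 lies highest at 332 to 482 and Slco3a1 lowest at 0.365 to 0.561, and Slco1a4 and Slc22a7 overlap in PBS but not in ghrelin.

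Between the groups Slco1a4 differed most. Its lowest, median and highest PBS values were 34.7, 54.5 and 76.4 CPM, and its ghrelin values were 21.9, 26.0 and 31.6 CPM. Every ghrelin liver was below every PBS liver, and the PBS livers were the more spread, PBS 1 being the highest and PBS 5 the lowest. The means were 54.3 ± 15.9 and 26.6 ± 4.10 CPM (SD, n = 6 per group), 2.04-fold lower with ghrelin by the fitted log2 fold change of -1.03 (SE 0.17). Slco1a4 was the 1 of 7 members called by the quasi-likelihood test of edgeR at an adjusted p under 0.05, beside 0.106% of all tested genes. Calls made up 0.0423% of genes as higher and 0.0635% as lower. It was also the 1 member without overlap between the groups, beside 0.826% of all genes in either direction and 0.459% with ghrelin lower. Since the set was named with this contrast known, nothing is read from those counts.

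The call of Slco1a4 by edgeR lay near the threshold (adjusted p = 0.0292), while the size of the difference changed little. The call was lost in 7 of 12 fits that left out 1 liver. These left out PBS 3, PBS 4, ghrelin 1, ghrelin 2, ghrelin 3, ghrelin 5 or ghrelin 6. Over all 12 fits the adjusted p of Slco1a4 by edgeR was 0.0267 to 0.101. Its log2 fold change stayed between -1.12 and -0.90. Without ghrelin 1 or without ghrelin 3 no gene at all was called. With robust estimation of the spread the call of Slco1a4 was lost as well, at the same log2 fold change of -1.03.

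Slc22a7 showed the next largest difference, in the other direction. Its PBS values were 11.2, 15.3 and 22.2 CPM (lowest, median, highest) and its ghrelin values 16.0, 23.6 and 33.9 CPM. Of the ghrelin livers 3 lay above all PBS livers and 3 within their range, and PBS 5 stood above the other PBS livers. The log2 fold change was 0.61 (SE 0.19), with means of 15.3 ± 4.07 and 23.5 ± 6.53 CPM (SD, n = 6 per group), and the gene was not called.

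The abundant hepatocyte carriers differed less between the groups, and none was called. The PBS values of Slco1b2 were 1749, 1924 and 2377 CPM (lowest, median, highest) and its ghrelin values 1638, 1782 and 1947 CPM. Of its 6 ghrelin livers 4 lay inside the PBS range and 2 below it (log2 fold change -0.16, SE 0.08). For Slco1a1 the values were 787, 841 and 924 CPM against 715, 795 and 905 CPM, and 3 ghrelin livers lay below the PBS range (log2 fold change -0.07, SE 0.07). An interval of 2 SE on either side of the difference ran from -0.21 to 0.07 on the log2 scale for Slco1a1 and from -0.32 to 0.0014 for Slco1b2. For Slco2b1 the interval was -0.08 to 0.17. Its ghrelin livers spread more widely (152 to 192 CPM) than its PBS livers (156 to 172 CPM), with 3 above and 1 below the PBS range.

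Among the carriers with low levels, the PBS values of Slco2a1 were 30.3, 36.3 and 42.5 CPM (lowest, median, highest) and its ghrelin values 36.1, 40.1 and 46.4 CPM, with a log2 fold change of 0.13 (SE 0.09). Only ghrelin 1 lay outside the PBS range. Slco3a1 rested on 51 to 105 counts per liver, with PBS values of 3.09, 4.11 and 4.76 CPM and ghrelin values of 3.20, 3.86 and 4.61 CPM. All 6 ghrelin livers were inside the PBS range, and the interval of its difference, -0.34 to 0.20, was wider than that of the abundant carriers.

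**Figure D2:**
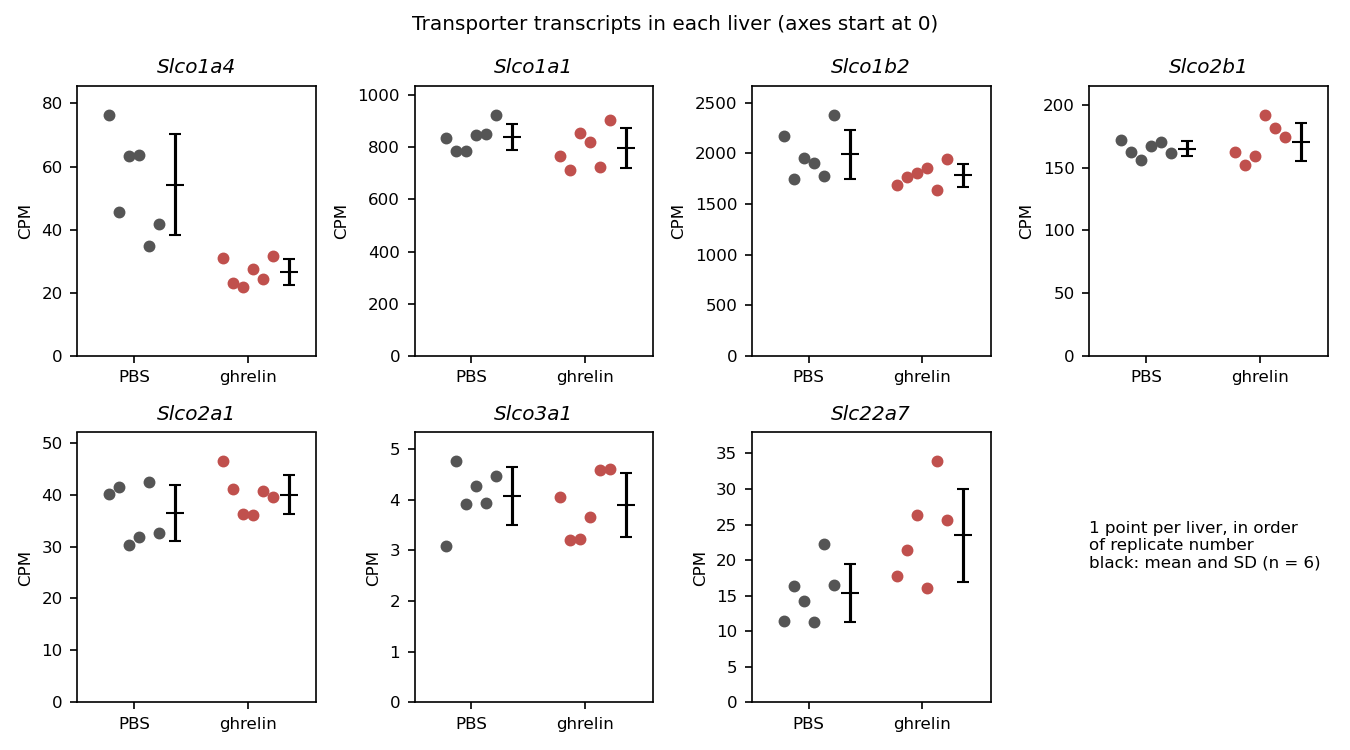
CPM of each carrier in each liver (points in order of replicate number, linear axes from 0), with the mean and SD of the 6 PBS and 6 ghrelin livers beside them. The ghrelin points of Slco1a4 (21.9 to 31.6 CPM) all lie below its PBS points (34.7 to 76.4 CPM), while the groups overlap for the other 6 genes.

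The neighbours Slco1a1 and Slco1a4 can also be set against each other within a liver, which removes the scaling of the library. The level per kb of Slco1a1 was 13.3 to 29.8 times that of Slco1a4 in PBS and 30.2 to 47.6 times in ghrelin. The ratio of Slco1b2 to Slco1a1 overlapped, at 2.24 to 2.78 in PBS and 2.25 to 2.64 in ghrelin. Both ratios use the contrast that led to the choice of genes and are descriptions.

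Spread between the libraries of a group separated the carriers in another way. The SD of log2 CPM within groups was 0.34 for Slco1a4 and 0.38 for Slc22a7, larger than for 95.8% of 3685 and 96.3% of 4455 other genes within 2-fold of their level. It was 0.11 for Slco1a1, 0.14 for Slco1b2 and 0.10 for Slco2b1, where 34.1%, 49.5% and 30.0% of genes at like levels were less variable. Slco2a1 had 0.18 (78.4% of genes at its level less variable) and Slco3a1 0.22 (37.0%). The 2 carriers with the largest differences between the groups were thus also the most variable within them for their level.

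These variable carriers tended to deviate in opposite directions. With group means removed, log2 CPM of Slco1a4 and Slc22a7 had Pearson's r = -0.70 over 12 livers (permutation within groups, two-sided p = 0.0122, adjusted p = 0.128 over 21 pairs) and Spearman's rho = -0.64 (permutation p = 0.0234, adjusted p = 0.384). Neither passed after adjustment. Within groups r was -0.94 over the 6 PBS and -0.40 over the 6 ghrelin livers. Without PBS 1 and PBS 4 it was -0.55 over the other livers (permutation p = 0.0919). Those 2 lay farthest from the median of Slco1a4 over all 12 livers, taken before group means were removed. PBS 5, with the least Slco1a4 in PBS, stayed in. PBS 1 and PBS 4 had more Slco1a4 and less Slc22a7 than their group, and PBS 5 had the reverse. Not every liver did so: ghrelin 6 was above its group for both genes and ghrelin 2 below it for both. The PBS libraries were not equally alike by chi-square per degree of freedom of their counts, which is higher for less alike libraries. It was 12.7 for PBS 3 and PBS 4, 12.3 for PBS 5 and PBS 6, and 44.4 for PBS 4 and PBS 5. PBS 5 and PBS 6 had the lowest Slco1a4 (34.7 and 41.9 CPM) and the highest Slc22a7 (22.2 and 16.5 CPM) in PBS. Whether r in PBS follows such groups of libraries was not tested.

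The other pair to stand out was Slco1a1 with Slco1b2, neighbours that are both abundant in hepatocytes. Their deviations had r = 0.65 (permutation p = 0.00968, adjusted p = 0.128) and rho = 0.58 (permutation p = 0.0366, adjusted p = 0.384), with r = 0.68 in PBS, 0.83 in ghrelin and 0.69 without ghrelin 2 and ghrelin 5 (permutation p = 0.0272). Slco1a4, between these genes on the chromosome, had r = -0.02 with Slco1a1 (permutation p = 0.947, adjusted p = 0.968; rho = -0.13, permutation p = 0.668, adjusted p = 0.860) and -0.27 without ghrelin 2 and ghrelin 5. With Slco1b2 it had r = 0.26 (permutation p = 0.51, adjusted p = 0.968; rho = 0.22, permutation p = 0.533, adjusted p = 0.860) and 0.15 without PBS 1 and PBS 4. Of all 21 pairs none passed after adjustment and 2 had an unadjusted permutation p under 0.05. No label names a batch, so no value within batches could be computed.

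**Figure D3:**
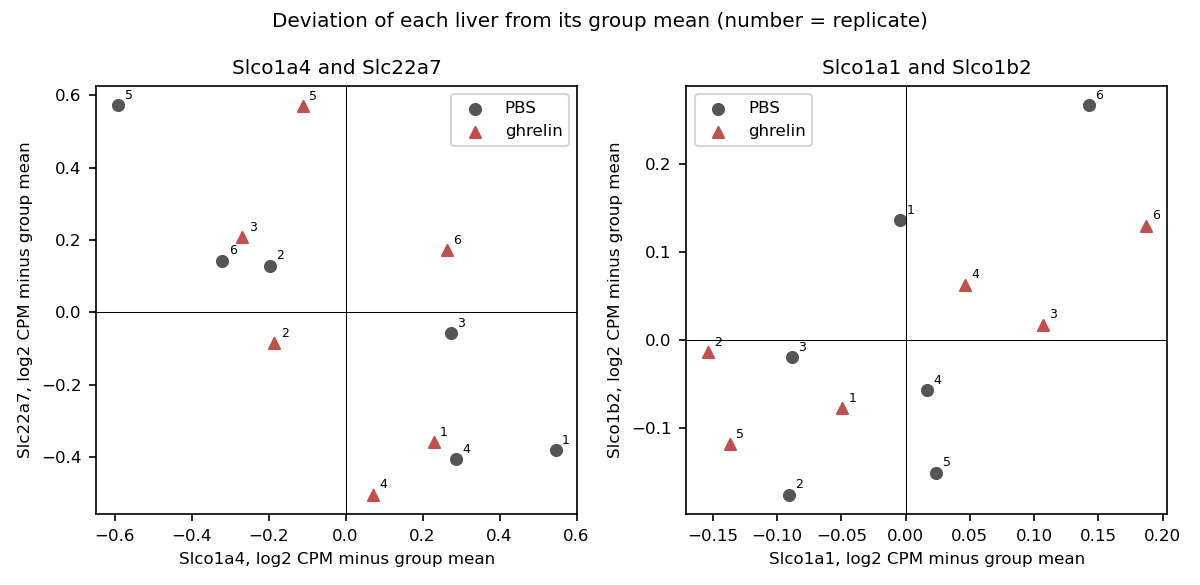
Deviation of log2 CPM from the group mean in each liver (grey circles PBS, red triangles ghrelin, numbers are replicates) for Slco1a4 against Slc22a7 and for Slco1a1 against Slco1b2. The points of Slco1a4 and Slc22a7 slope down (r = -0.70) and those of Slco1a1 and Slco1b2 slope up (r = 0.65); neither passed after adjustment.

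The 7 carriers were also set against 6 genes that report liver states: Cish (growth hormone feedback), Cyp2b10 (CAR), Cyp3a11 (PXR), Nqo1 (the NRF2 oxidative stress response), Saa1 (acute phase) and Stab2 (sinusoidal endothelium). None of the 42 relations passed after adjustment, and 1 by r and 2 by rho had an unadjusted permutation p under 0.05. Cyp2b10 had r = -0.62 with Slc22a7 (permutation p = 0.0435, adjusted p = 0.586; rho = -0.71, permutation p = 0.0173, adjusted p = 0.554), and -0.68 without PBS 3 and ghrelin 3. With Slco1a4 it had r = 0.58 (permutation p = 0.0558, adjusted p = 0.586; rho = 0.59, permutation p = 0.0416, adjusted p = 0.554) and 0.47 without the same livers. Cyp2b10 was near the floor in some ghrelin livers, at 0.0495 CPM in ghrelin 3 and 0.0960 CPM in ghrelin 6. Its deviations there rest on very few counts. Cyp3a11 had r = -0.60 with Slc22a7 (permutation p = 0.0549, adjusted p = 0.586; rho = -0.54, permutation p = 0.0898, adjusted p = 0.554), and -0.51 without PBS 1 and ghrelin 6. Slco3a1 had r = 0.58 with Stab2 (permutation p = 0.0514, adjusted p = 0.586; rho = 0.57, permutation p = 0.0541, adjusted p = 0.554) and 0.64 without PBS 3 and ghrelin 3. Slco2a1 had r = -0.30 with Stab2 (permutation p = 0.42, adjusted p = 0.730; rho = -0.38, permutation p = 0.302, adjusted p = 0.747), with r = -0.57 in PBS and 0.52 in ghrelin. Saa1 and Cish spanned wide ranges, from 41.6 to 1225 CPM and from 0.990 to 27.1 CPM. Slco1a4 had r = 0.24 with Saa1 (permutation p = 0.504, adjusted p = 0.756; rho = 0.34, permutation p = 0.379, adjusted p = 0.768) and -0.11 without PBS 3 and PBS 4.

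Over 8831 other genes with a symbol and a mean of at least 5 CPM (8832 for Slco3a1, itself below that level), those most like each carrier by r of the deviations over 12 livers were as follows. Among the closest to Slco1a4 were Alb, the albumin gene (r = 0.88), and Glrx, a glutaredoxin (0.85), with Erlec1 and Csnk1g3 at 0.84. Nearest to Slc22a7 were Cxcl16, a chemokine (0.92), Dnm2, a dynamin (0.89), Trim26 (0.89), Spint2 (0.89) and Plekhm1 (0.88). Slco1a1 was most like Lgals8, a galectin (0.93), Gnpnat1 (0.92), Ugt2a3, a glucuronosyltransferase (0.90), Spcs1 (0.90) and Ccz1 (0.89). For Slco1b2 they were Rdx, which encodes the membrane linker radixin (0.90), Kdm4c (0.87), Nadkd1 (0.86), Stag2 (0.86) and Pcmtd2 (0.86). Slco2b1 was most like Hint3 (0.89), Timd2 (0.88), Scd1, a fatty acid desaturase (0.87), Chsy3 (0.85) and Mttp, the lipid transfer protein of lipoprotein assembly (0.84). Slco2a1 was most like Dalrd3 (0.90), Ptrf, a coat protein of caveolae (0.88), Tmem147 (0.84), Srd5a1 (0.83) and Fam193a (0.81). Slco3a1 was most like Cdh5, the cadherin of endothelial junctions (0.90), Ythdc2 (0.87), Pdxk (0.87), Specc1l (0.87) and Def8 (0.86). All these values share the libraries, and the highest of 8831 correlations over 12 livers is high by selection.

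Relatives of the carriers give the range of the families. Of 11 other Slco symbols all were in the file and only Slco6d1 passed the filter, at 0.674 ± 0.172 CPM in PBS and a log2 fold change of -0.24 (SE 0.26). Slco1c1, a thyroxine carrier of the brain barrier, had 39 counts in all and Slco4a1 had 43. Of 24 other Slc22 genes 16 were measured, 8 with a positive and 8 with a negative log2 fold change (median -0.02). None was called by edgeR or DESeq2, and 2 had an unadjusted p under 0.05 by edgeR. Those 2 were Slc22a23 (log2 fold change -0.23, SE 0.10) and Slc22a26 (-0.65, SE 0.30), and next came Slc22a28 (0.30, SE 0.16).

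**Figure D4:**
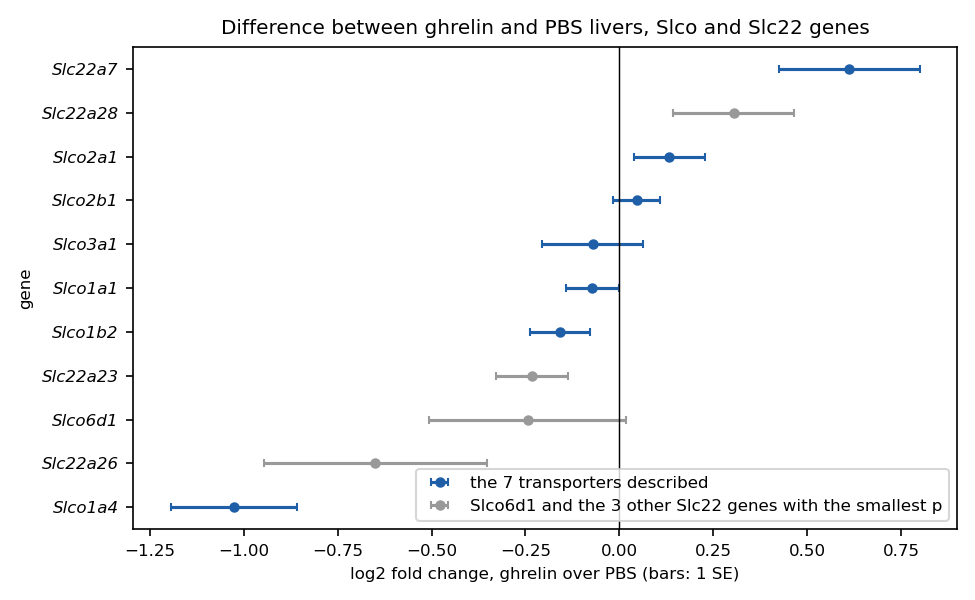
Log2 fold change of ghrelin over PBS with 1 SE for the 7 carriers (blue) and for Slco6d1 and the 3 other Slc22 genes with the smallest p (grey), ordered by value. Slco1a4 (-1.03) and Slc22a7 (0.61) lie at the ends.

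Genes that act with the carriers mostly did not pass. Over all 14170 tested genes 7087 had a positive log2 fold change, and the median was 3.19e-05. An unadjusted p under 0.05 was found by edgeR for 13.4% of them, and DESeq2 called 1.71% of 12313 genes. Those shares are the background for the counts that follow, and no count was tested against them. The lists were chosen with earlier results of these data known, so their counts are descriptions only. Of 8 measured carriers for bile acids, thyroid hormone and other substrates, 3 were positive (median -0.05), none was called by edgeR or DESeq2 and 3 had an unadjusted p under 0.05 by edgeR. These were Slc10a1 (513 ± 53.6 CPM with PBS, 445 ± 47.4 CPM with ghrelin, log2 fold change -0.20, SE 0.08), Slc16a10, a carrier of aromatic amino acids and thyroid hormone (log2 fold change -0.32, SE 0.13), and Slc17a3, an anion carrier (0.20, SE 0.08). Of 12 measured efflux transporters 7 were positive (median 0.01). None was called by edgeR, 2 had an unadjusted p under 0.05 and DESeq2 called Abcc3, which returns conjugates to blood (log2 fold change -0.47, SE 0.14). Abcg5, a subunit of the sterol pump, had -0.19 (SE 0.08) and Abcc4, another pump to blood, 0.29 (SE 0.14).

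Targets of CAR and PXR, the receptors linked to Slco1a4, had 17 of 19 measured members negative (median -0.27). The test called Cyp2c37, a drug-metabolising P450, lower (319 ± 43.0 CPM with PBS and 218 ± 23.2 CPM with ghrelin, log2 fold change -0.55, SE 0.09), and 9 members had an unadjusted p under 0.05 by edgeR. DESeq2 called 5 members, of which 4 were lower, Cyp2c37, Cyp2c29, Sult1d1 and Abcc3, and 1 was higher, the carboxylesterase gene Ces2c (log2 fold change 0.81, SE 0.22). Cyp2b10 had a log2 fold change of -2.16 (SE 0.66) from a PBS mean of 2.51 CPM to 0.549 CPM, and Cyp3a11 had -0.79 (SE 0.22), both uncalled. The receptor genes themselves, named here for their role and not by the naming rule, had -0.08 (SE 0.21) for Nr1i3, which encodes CAR, and -0.08 (SE 0.11) for Nr1i2, which encodes PXR. Hnf4a, a general regulator of hepatocyte genes, had -0.16 (SE 0.12). In the list of 24 regulators 11 were positive (median -0.05), 1 was called by edgeR, lower, and 7 had an unadjusted p under 0.05. DESeq2 called 2, of which Stat5a, a transducer of growth hormone signals, was higher (log2 fold change 0.58, SE 0.14). Whether these receptors or targets had a part in the values of Slco1a4 was not tested.

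Lists for the substrates were described in the same way. Of 12 measured genes of prostaglandin handling, the substrates of Slco2a1, 4 were positive (median -0.06). None was called by edgeR, 1 had an unadjusted p under 0.05 and DESeq2 called that gene, Hpgd, which inactivates prostaglandins after uptake (82.2 ± 14.7 against 57.9 ± 12.7 CPM, log2 fold change -0.50, SE 0.14). Next by p were Tbxas1 (0.26, SE 0.17) and Ptgr2 (-0.09, SE 0.06). Of 7 genes of bilirubin and haem breakdown 3 were positive (median -0.05), with none called by edgeR or DESeq2 and 0 at an unadjusted p under 0.05. Ugt1a1, which conjugates bilirubin, had -0.14 (SE 0.07), Abcc2, which exports it to bile, -0.14 (SE 0.09) and Hmox2 0.06 (SE 0.06). Of 8 measured genes of thyroid hormone handling 3 were positive (median -0.14), and the test called Serpina7, the plasma carrier of thyroxine, lower (87.8 ± 17.0 against 32.8 ± 11.5 CPM, log2 fold change -1.42, SE 0.21). An unadjusted p under 0.05 was found for 3 of the 8. DESeq2 called Serpina7 and also Dio1, which activates thyroxine, as higher (37.0 ± 14.1 against 71.3 ± 16.8 CPM, log2 fold change 0.94, SE 0.21).

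Further lists give the state of the tissue. Among 13 measured NRF2 targets 4 were positive (median -0.09), and Osgin1, an oxidative stress response gene, was called higher (26.1 ± 5.46 against 58.6 ± 19.1 CPM, log2 fold change 1.16, SE 0.20). DESeq2 called the same gene alone, and 3 had an unadjusted p under 0.05 by edgeR. Of 14 acute phase genes 3 were positive (median -0.22), with 0 called by edgeR or DESeq2 and 0 at an unadjusted p under 0.05. Lcn2, a siderophore binder, had -1.42 (SE 0.79), Hpx -0.23 (SE 0.13) and Hp -0.27 (SE 0.19). Of 10 pericentral genes 4 were positive (median -0.05), with 0 called by either tool and 4 at an unadjusted p under 0.05 by edgeR, led by Slc1a2 (-0.33, SE 0.11), Tbx3 (0.53, SE 0.18) and Rhbg (0.39, SE 0.14). Of 10 periportal genes 3 were positive (median -0.07), with 0 called by edgeR and 5 at an unadjusted p under 0.05. DESeq2 called Cyp2f2 (0.37, SE 0.09), and Arg1 had -0.25 (SE 0.08) and Sds -0.56 (SE 0.21).

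Marker genes were read for cell types of the liver and for other cell types. Summed hepatocyte markers were 79883 to 111662 CPM in PBS and 76337 to 92251 CPM in ghrelin (7 of 8 in the file, 4 positive). Most of this sum was Alb, with a mean of 65445 CPM beside a mean sum of 93600 CPM in PBS. In ghrelin these means were 57655 and 85295 CPM, so the sum follows Alb more than the other markers. The 10 markers of sinusoidal endothelium, where Slco2a1 is known to be expressed, summed to 512 to 582 CPM in PBS and 532 to 570 CPM in ghrelin, with 5 positive and 5 negative. Kupffer cell markers (7 measured of 8) gave 140 to 245 and 183 to 235 CPM, the 8 stellate cell markers 370 to 419 and 343 to 411 CPM, and cholangiocyte markers (5 measured of 6) 20.5 to 32.9 and 24.9 to 32.3 CPM. Neutrophil markers (2 measured of 5) gave 3.40 to 8.32 and 0.792 to 4.02 CPM, with both measured members negative. Lymphocyte markers (2 measured of 6) gave 10.2 to 18.4 and 11.4 to 21.4 CPM, and adipocyte markers (1 of 4) 0.502 to 2.90 and 0.628 to 1.24 CPM. Kidney tubule markers (1 of 5) gave 0.603 to 1.78 and 1.27 to 3.22 CPM, with Slc22a6 and Umod at 0 counts, and acinar markers (0 of 5 measured) at most 0.991 CPM, with Cela3b, Pnlip and Prss2 at 0. In each of these lists 0 genes were called by edgeR. An unadjusted p under 0.05 was found for 2 hepatocyte, 2 stellate, 2 neutrophil and 1 kidney marker and for 0 in the other lists, and DESeq2 called Cps1 of the hepatocyte and S100a8 of the neutrophil list. The part of cell makeup in the values of the carriers was not tested.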

How the data were processed

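Total RNA of 12 livers was sequenced. Per the labels' protocols, 250 ng were made into stranded libraries after removal of ribosomal RNA, 12 PCR cycles were run, and both ends were sequenced (125 cycles). The authors deposited raw exon counts, not normalised. STAR 2.4.0i was the aligner and mm10 the genome, per the submitters' processing notes. What program and annotation gave the counts, and how shared reads were treated, is not given in the sources used here.

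Library totals were 15775059 to 22302533 counts. Groups and numbers come from titles. Each library was taken as 1 animal, which no label states, and the p-values rest on that reading. Within-group pairs of libraries differed by more than counting error, with a chi-square per degree of freedom of 10.8 to 44.4. Within the PBS group Saa1 ran from 43.3 to 1225 CPM. Genes were filtered with filterByExpr of edgeR 4.0.16 (minimum count 10, total 15), scaled by TMM and compared by the quasi-likelihood F test, with Benjamini-Hochberg adjustment over 14170 genes (R 4.3.3, two-sided, threshold 0.05). SE is the log2 fold change over the square root of F. Log2 CPM used a prior count of 2. Correlations used 100000 permutations of livers within groups and no pooled value where a gap exceeded 0.5 of the range, which did not occur. Exon lengths came from GENCODE M21, which matched 98.3% of tested genes. Both tests were tested on simulated data.

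Members and lists were chosen with earlier results of these data known. The genes named are the members, called genes of each list or otherwise the 3 with the smallest p, 6 preset genes and up to 5 genes most like each member. Others are named for their role, for low counts, or because DESeq2 1.42.0 called them. 1 called gene and the values of a few other genes are not reported here. Alternatives were other scalings, filters, tests (DESeq2, limma 3.58.1), a replicate block and leaving out each library.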

Additional observations from a re-analysis of the deposited data

How the results depend on the processing

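The signs of all 7 fold changes were the same in all 22 alternative fits. The number of called genes was 15 (6 higher, 9 lower), and became 63 without a filter, 210 with DESeq2, 9 with robust estimation, and 0 to 32 on leaving out 1 library. The quasi-likelihood test of edgeR called 0 without ghrelin 1 and 0 without ghrelin 3, where 1675 and 1536 genes had an unadjusted p under 0.05. Leaving out PBS 3 gave 5 calls, ghrelin 6 gave 6, ghrelin 2 gave 9, PBS 6 gave 23, PBS 5 gave 24 and ghrelin 4 gave 32. Slco1a4 was called in 14 of 22 fits by the adjusted p of each tool (4.59e-06 by DESeq2 to 0.101). Its log2 fold change was -1.03 with robust estimation, where the call was lost (adjusted p = 0.0909 by edgeR), and -1.12 to -0.90 without single libraries. With limma-voom its adjusted p was 0.0499961, just under the threshold.

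With the replicate number as a block, the test of edgeR called 58 genes, Slco1a4 kept its call (adjusted p = 0.0212) and Slc22a7 passed with a log2 fold change of 0.61 (adjusted p = 0.0112, against 0.204 without the block). Slc22a7 was called in no other fit. The numbers are not said to pair animals. Same-numbered livers had correlations of deviations from -0.08 to 0.27, and 1 of 6 numbers matched best with itself, so the pairing rests on a shared number alone.

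Per kb of the longest transcript, PBS levels were 601 for Slco1b2, 215 for Slco1a1, 37.6 for Slco2b1, 14.2 for Slco1a4, 7.71 for Slc22a7, 5.12 for Slco2a1 and 0.888 for Slco3a1. No correlation passed with library totals alone or without the 2 farthest livers. Depth limits Slco3a1, with 51 to 105 counts per liver.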
